A study of Mus musculus with 4 samples.

Results

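The B cell and plasma cell genes Ms4a1, Cd79a, Cd79b, Pax5, Ebf1, Blk, Cd22, Pou2af1 and Jchain were followed in cells of bronchoalveolar lavage fluid (BALF), the fluid obtained by rinsing the airways and alveoli. Probes were taken by symbol: every non-control probe whose RefSeq accession belongs to one of the 9 genes, of 20832 genes that the accessions name on the array. These were 10 probes, with 2 for Pax5 and 1 for each other gene. RNA from BALF cells, which the sample records call alveolar macrophages, was hybridized to 4 one-color arrays, 2 for wild-type and 2 for S1pr2-/- mice. S1pr2-/- mice lack the sphingosine-1-phosphate receptor S1P2 in all cells through targeted disruption of S1pr2, and their controls were wild-type littermates from heterozygous parents on a mixed 129Ola;C57BL/6J background that had been crossed back to C57BL/6J. Mice of both genotypes, 8 to 10 weeks old, received repeated intraperitoneal bleomycin at 0.035 U/g, and the records place collection at day 22, so the arrays hold no untreated mice. The cells were not sorted, and the number of mice behind an array was not found in the text on the arrays.

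B cells recognize antigen through a membrane immunoglobulin that signals by way of its partner chains CD79A and CD79B, and the coreceptor CD22 and the Src-family kinase BLK tune that signal. PAX5 and EBF1 set and hold B cell identity, and OCA-B, the product of Pou2af1, assists octamer-binding factors at immunoglobulin promoters. MS4A1 is the B cell surface protein CD20, and the J chain joins the units of secreted IgM and IgA that plasma cells release, for instance at mucosal surfaces such as the airways.

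The 250 bases before the start of 4 of these genes are shown from RefSeq (build GRCm38.p6), because their signals went in different directions on these arrays. They are Cd79a at chr7:24897247-24897496 on the plus strand and Pou2af1 at chr9:51213440-51213689 on the plus strand, both highest on wild-type replicate 1, Cd22 at chr7:30879029-30879278 on the minus strand, nearly level on the arrays, and Jchain at chr5:88527898-88528147 on the minus strand, highest on the arrays labelled S1pr2-/-. Each runs 5′ to 3′ in the direction of its gene, and capitals mark the Ets core GGAA on either strand and, in Cd22, the EBF motif.
Cd79a: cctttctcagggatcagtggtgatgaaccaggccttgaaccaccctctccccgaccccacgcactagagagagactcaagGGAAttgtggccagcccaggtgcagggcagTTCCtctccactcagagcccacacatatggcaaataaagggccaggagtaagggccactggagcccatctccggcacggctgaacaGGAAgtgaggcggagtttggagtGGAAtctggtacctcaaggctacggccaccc
Pou2af1: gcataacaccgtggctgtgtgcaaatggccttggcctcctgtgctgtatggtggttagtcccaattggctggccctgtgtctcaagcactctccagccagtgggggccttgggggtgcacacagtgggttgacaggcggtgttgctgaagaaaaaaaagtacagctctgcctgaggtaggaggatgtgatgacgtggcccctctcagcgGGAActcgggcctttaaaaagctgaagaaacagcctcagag
Cd22: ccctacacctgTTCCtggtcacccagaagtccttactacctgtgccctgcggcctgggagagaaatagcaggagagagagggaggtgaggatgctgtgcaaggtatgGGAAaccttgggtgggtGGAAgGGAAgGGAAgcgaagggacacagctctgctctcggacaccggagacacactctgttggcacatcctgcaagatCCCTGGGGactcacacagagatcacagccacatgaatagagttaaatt
Jchain: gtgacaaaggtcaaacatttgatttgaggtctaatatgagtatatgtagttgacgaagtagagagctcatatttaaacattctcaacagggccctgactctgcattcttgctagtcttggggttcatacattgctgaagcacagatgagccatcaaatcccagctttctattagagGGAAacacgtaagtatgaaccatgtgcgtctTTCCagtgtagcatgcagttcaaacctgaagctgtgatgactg

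These motifs were searched in these windows on both strands: the octamer ATGCAAAT, the EBF motif CCCNNGGG and the Ets core GGAA, whose matches may overlap one another. The octamer was in 0 of the 6 member genes that have a window, and in 1.601% of 32851 windows of that length. The EBF motif was in 1 of 6, Cd22, as CCCTGGGG starting 48 bases before the start, and in 11.817% of all windows. The Ets core was in 6 of 6 and in 93.446% of all windows. A match is a description of letters, and its absence says only that these letters are not in the window.

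Signals are given as the processed intensity of a probe over the 75th percentile of its array, called the ratio here, and differences as log2 fold changes of the arrays labelled S1pr2-/- minus wild-type. That percentile was 2489 to 2817 intensity units, 67.6% to 72.1% of probes exceeded background well, and 27158 probes entered the fit. S1pr2 itself went against the labels: its probe read -0.13 and -0.16 (log2) in wild-type against 2.67 and 2.54 with the S1pr2-/- label (log2 fold change 2.75, limma with Benjamini-Hochberg adjusted p = 0.332), and whether it lies in the disrupted part was not settled, so directions below rest on the labels. The records' cell type was present, with 13 of 13 macrophage marker genes well above background on all arrays and a summed ratio of 992 to 1119. All 7 eosinophil markers tested were lower on the arrays labelled S1pr2-/- without overlap, against 21.8% of all probes. Their median log2 fold change was -4.52, or -5.44 without wild-type replicate 1 and -3.67 without wild-type replicate 2. With normexp background correction this median was -2.65. In such a mixture, fewer cells of a type and less RNA per cell cannot be told apart.

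Of the 9 genes, 8 had a probe that entered the fit, and Ebf1 and the dimmer Pax5 probe did not. None of the 8 was lower or higher at an adjusted p under 0.05 (limma, Benjamini-Hochberg), against 0% of all probes in each direction. At an unadjusted p under 0.05, 0 were lower, against 5.59% of all probes, and 1 was higher, against 3.99%. The genotypes did not overlap for 0 probes on the lower side, against 21.8% of all probes, and for 1 on the higher side, against 20%, and the one gene in both counts was Jchain. The median log2 fold change was -0.43 over the 8 genes and -0.003 over all probes tested.

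**Figure D1:**
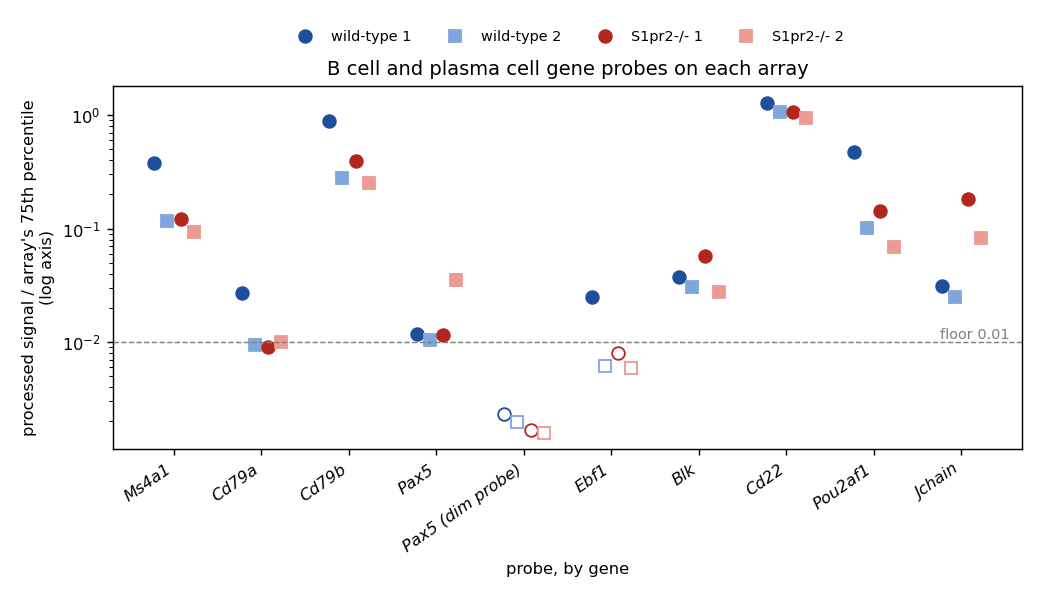
Processed signal over the 75th percentile of the array (log axis) for each probe of the 9 genes, with 1 point for each of the 4 arrays; open points are not well above background and the dashed line is the floor of 0.01. Ms4a1, Cd79a, Cd79b, Pou2af1 and Ebf1 stand highest on wild-type replicate 1, and Jchain is highest on both arrays labelled S1pr2-/-.

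Ms4a1, which encodes CD20, was high on 1 of the wild-type arrays and not on the other. Ms4a1 had ratios of 0.380 and 0.116 on wild-type replicates 1 and 2 and of 0.121 and 0.0938 on S1pr2-/- replicates 1 and 2. Only wild-type replicate 1 stood high, 3.13-fold above the next array, and the genotypes overlapped. The log2 fold change was -0.98 (SE 0.685, 95% interval -3.06 to 1.1, Benjamini-Hochberg adjusted p = 0.665 by limma), and -0.12 without wild-type replicate 1.

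The chains that signal for the B cell receptor were also highest on wild-type replicate 1. Cd79a had ratios of 0.0272 and 0.0094 in wild-type and 0.0091 and 0.0101 in S1pr2-/- labelled cells. Wild-type replicate 1 was 2.70-fold above the next array and the other 3 arrays lay at about the floor of 0.01, which wild-type replicate 2 and S1pr2-/- replicate 1 reached. Its log2 fold change was -0.72 (SE 0.566, limma adjusted p = 0.694) with all arrays and 0.0062 without wild-type replicate 1. Cd79b, brighter on this array design, had ratios of 0.880 and 0.280 in wild-type and 0.396 and 0.251 in S1pr2-/- labelled cells. Again only wild-type replicate 1 stood apart, 2.22-fold above the next array. The log2 fold change was -0.66 (SE 0.696, limma adjusted p = 0.753), and 0.17 without wild-type replicate 1.

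Among the regulators of transcription, Pou2af1 went the same way and Pax5 did not. Pou2af1 had ratios of 0.477 and 0.101 in wild-type and 0.142 and 0.0684 in S1pr2-/- labelled cells. Wild-type replicate 1 was 3.36-fold above the next array, and replicate 2 lay between the arrays of the other genotype. The log2 fold change was -1.15 (SE 0.969, 95% interval -4.09 to 1.78, limma adjusted p = 0.701), and -0.03 without wild-type replicate 1.

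Ebf1 was well above background on wild-type replicate 1 only, with ratios of 0.0247 and 0.0061 in wild-type and 0.0080 and 0.0059 in S1pr2-/- labelled cells. It did not enter the fit. With ratios under 0.01 set to that floor, the wild-type mean was 1.57-fold higher, which rests on 1 of 2 wild-type arrays. This value is not a bound, because wild-type replicate 2 was itself raised to the floor. The brighter Pax5 probe had ratios of 0.0117 and 0.0104 in wild-type and 0.0115 and 0.0353 in S1pr2-/- labelled cells, and S1pr2-/- replicate 2 alone was high. Its log2 fold change of 0.86 (SE 0.638, limma adjusted p = 0.679) became 0.05 without that array. The other Pax5 probe was not well above background on any of the 4 arrays, S1pr2-/- replicate 2 included.

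The coreceptor and the kinase followed neither pattern. Cd22 had ratios of 1.29 and 1.06 in wild-type and 1.07 and 0.952 in S1pr2-/- labelled cells. These 4 values were close, with wild-type replicate 1 only 1.20-fold above the next array. The log2 fold change was -0.21 (SE 0.137, 95% interval -0.63 to 0.21, limma adjusted p = 0.645). Blk had ratios of 0.0373 and 0.0308 in wild-type and 0.0571 and 0.0276 in S1pr2-/- labelled cells, so that the highest and the lowest value were of the same genotype. Its log2 fold change was 0.23 (SE 0.426, limma adjusted p = 0.861), and -0.29 without S1pr2-/- replicate 1.

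Wild-type replicate 1 was the highest of the 4 arrays for 5 of the 8 genes, against 29.5% of all probes, and at least 2-fold above every other array for 4 of 8, against 0.847% of all probes. These were Ms4a1, Cd79a, Cd79b and Pou2af1, and the fifth was Cd22. With normexp background correction the count of 4 became 0. That correction raised signals by a median of 465 intensity units on S1pr2-/- replicate 1, against 41.9 to 45.3 on the other arrays. The median absolute log2 difference between the wild-type arrays was 0.883 over the 8 genes and 0.124 over all probes, and between the arrays labelled S1pr2-/- it was nearly as large, 0.852 against 0.123. It was 0.316 and 0.235 between wild-type replicate 2 and S1pr2-/- replicates 1 and 2, and 1.30 and 1.51 between wild-type replicate 1 and the same arrays. Without wild-type replicate 1 the median log2 fold change of the 8 genes was 0.089, and without wild-type replicate 2 it was -0.89. The summed ratio of T cell markers on the same arrays was 34.4 and 37.6 for wild-type and 31.6 and 22.3 for the arrays labelled S1pr2-/-, and that of macrophage markers was 1018, 1119, 992 and 1088, so neither list was highest on wild-type replicate 1. Plasmacytoid dendritic cell markers, some of which B cells share, summed to 78.6, 74.8, 65.7 and 69.5 in the same order. None of the 10 was at background. This sum was highest on wild-type replicate 1, but by less than that of the 9 genes, which was 3.16, 1.64, 2.00 and 1.53. That array was the highest for 7 of the 10 markers and at least 2-fold above every other for 1. The part of these markers in the result was not tested.

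**Figure D2:**
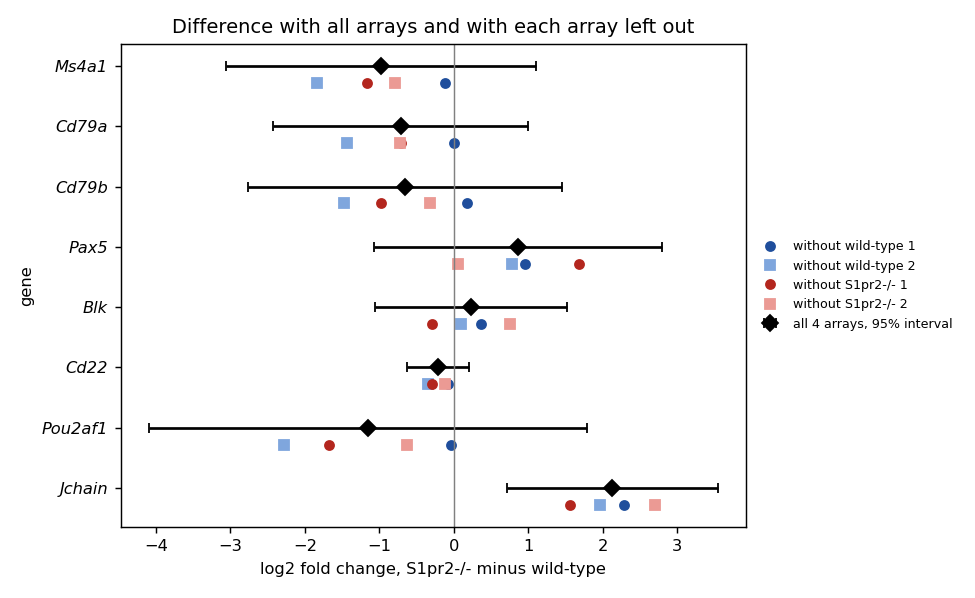
Log2 fold change of each tested gene, arrays labelled S1pr2-/- minus wild-type, with all 4 arrays (diamond with 95% interval) and with each array left out (points). Leaving out wild-type replicate 1 moves Ms4a1, Cd79a, Cd79b and Pou2af1 to between -0.12 and 0.17, and Jchain stays between 1.56 and 2.70.

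Jchain went the other way. It had ratios of 0.0314 and 0.0251 in wild-type and 0.183 and 0.0828 in S1pr2-/- labelled cells. Both arrays labelled S1pr2-/- were above both wild-type arrays, and S1pr2-/- replicate 1 was 2.20-fold above replicate 2. The log2 fold change was 2.13 (SE 0.466, 95% interval 0.72 to 3.54), a fold of 4.37, with an unadjusted p of 0.0161 and a Benjamini-Hochberg adjusted p of 0.509 by limma. With 2 arrays a genotype the smallest two-sided p of an exact permutation test is 0.333.

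No other gene of the plasma cell list was higher at an unadjusted p under 0.05. Of 15 listed, 14 entered the fit, 4 were lower and 0 higher at an unadjusted p under 0.05 (5.59% and 3.99% of all probes), 5 were lower and 1 higher without overlap (21.8% and 20% of all probes), and the median log2 fold change was -0.16. That median was 0.015 without wild-type replicate 1 and -0.33 without wild-type replicate 2. The 4 lower genes were Creld2 (-0.60, SE 0.0615) and Derl3 (-0.49, SE 0.122), both of the endoplasmic reticulum, Xbp1 (-0.29, SE 0.0684), a factor of the secretory program that other secreting cells also use, and Fkbp11, with ratios of 0.0169 and 0.0155 in wild-type and both other arrays under the floor of 0.01, so that its difference is a bound set by the floor and its p takes in no spread there. The adjusted p was 0.509 for each by limma with Benjamini-Hochberg adjustment. The plasma cell receptor gene Tnfrsf17 was not well above background on any of the 4 arrays. Of 13 immunoglobulin and related genes, 2 had a probe with a matching accession: Igll1, not well above background on any of them, and Pigr, the receptor that carries polymeric immunoglobulin across epithelia, with a log2 fold change of -0.20 (SE 0.136).

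Stromal genes tended to their highest values on the same array as Jchain. Of 7 listed, 5 entered the fit, 4 were higher without overlap (20% of all probes) and 1 of them, Dcn, was higher at an unadjusted p under 0.05 (3.99% of all probes). The median log2 fold change was 0.76, or 0.21 without S1pr2-/- replicate 1. Dcn, the matrix proteoglycan decorin, had ratios of 0.0813 and 0.0866 in wild-type and 0.310 and 0.160 in S1pr2-/- labelled cells. The 4 higher genes, Dcn and the collagen genes Col1a1, Col1a2 and Col3a1, were each highest on S1pr2-/- replicate 1, as was Jchain, and the summed ratio of the list was 0.264 and 0.261 in wild-type and 0.662 and 0.358 in S1pr2-/- labelled cells. Pdgfrb and Lum, also of stromal cells, were not well above background, and the part of these cells in the Jchain result was not tested. Dcn was also among the 8 named genes whose centered log2 values lay nearest to Jchain over the 4 arrays, at rank 3 (Euclidean distance 0.789). This comparison was chosen after the values were seen. The others were Sbpl, Dcpp1, Dcpp2, Hbb-y, Gchfr, Fkbp9 and S1pr2, none of them in the stromal list. Sbpl, Dcpp1, Dcpp2 and Hbb-y were at the floor on both wild-type arrays, so their distances depend on it.

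**Figure D3:**
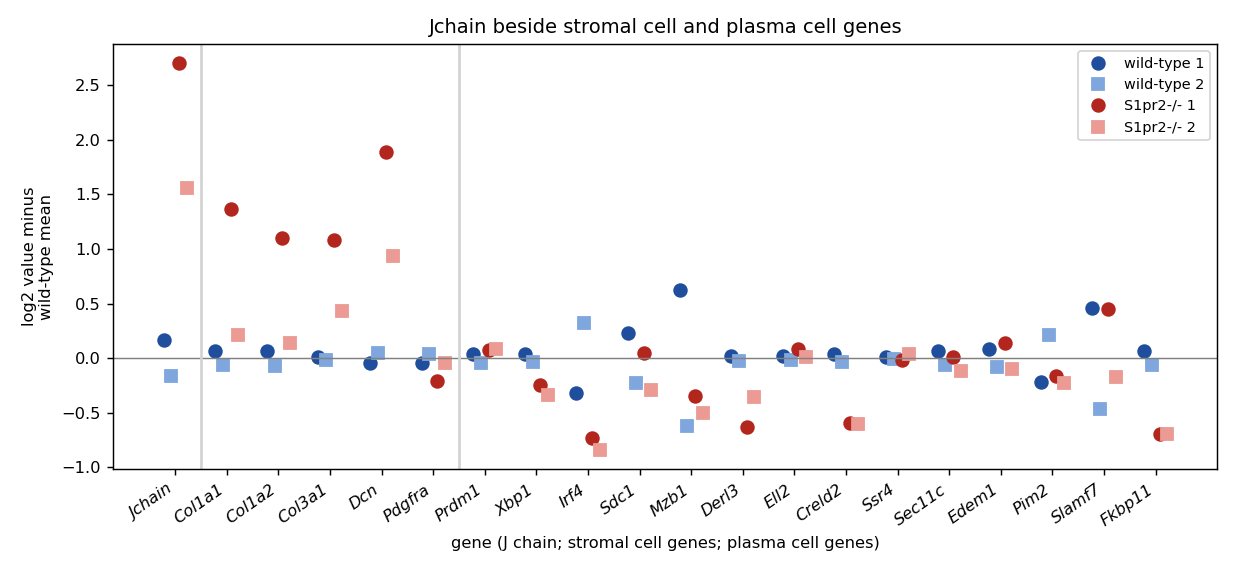
Log2 value on each of the 4 arrays minus the wild-type mean for Jchain, 5 stromal genes and 14 plasma cell genes. Jchain and 4 of 5 stromal genes lie higher on both arrays labelled S1pr2-/-, and most plasma cell genes lie near or below 0.

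Further B cell genes were read from lists. Of 27 surface and coreceptor genes, 5 were lower and 1 higher at an unadjusted p under 0.05 (5.59% and 3.99% of all probes), 9 were lower and 5 higher without overlap (21.8% and 20% of all probes), and the median log2 fold change was -0.31, or -0.04 without wild-type replicate 1. That array was the highest for 12 of the 27 (29.5% of all probes). The 4 with the lowest p were Fcer2a, the low-affinity IgE receptor CD23 (-0.46, SE 0.0817), Cd81, a tetraspanin that many cells carry (0.31, SE 0.0582), Siglecg, an inhibitory lectin (-1.30, SE 0.294), and the follicle-homing receptor Cxcr5 (-0.61, SE 0.164). Fcer2a and Siglecg were highest on wild-type replicate 2, not on replicate 1.

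Fcmr, the IgM Fc receptor, named after its values were seen, had ratios of 0.598 and 0.190 in wild-type and 0.252 and 0.177 in S1pr2-/- labelled cells. Only wild-type replicate 1 stood high, 2.37-fold above the next array. The log2 fold change was -0.67 (SE 0.677, limma adjusted p = 0.742), and 0.15 without that array. Wild-type replicate 1 was at least 2-fold above every other array for 2 of the 27 surface genes, against 0.847% of all probes. The same held for 0 of 15 genes that signal behind the receptor, 0 of 13 transcription factors and 0 of 14 plasma cell genes. It was the highest array for 5, 1 and 8 of these, against 29.5% of all probes.

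**Figure D4:**
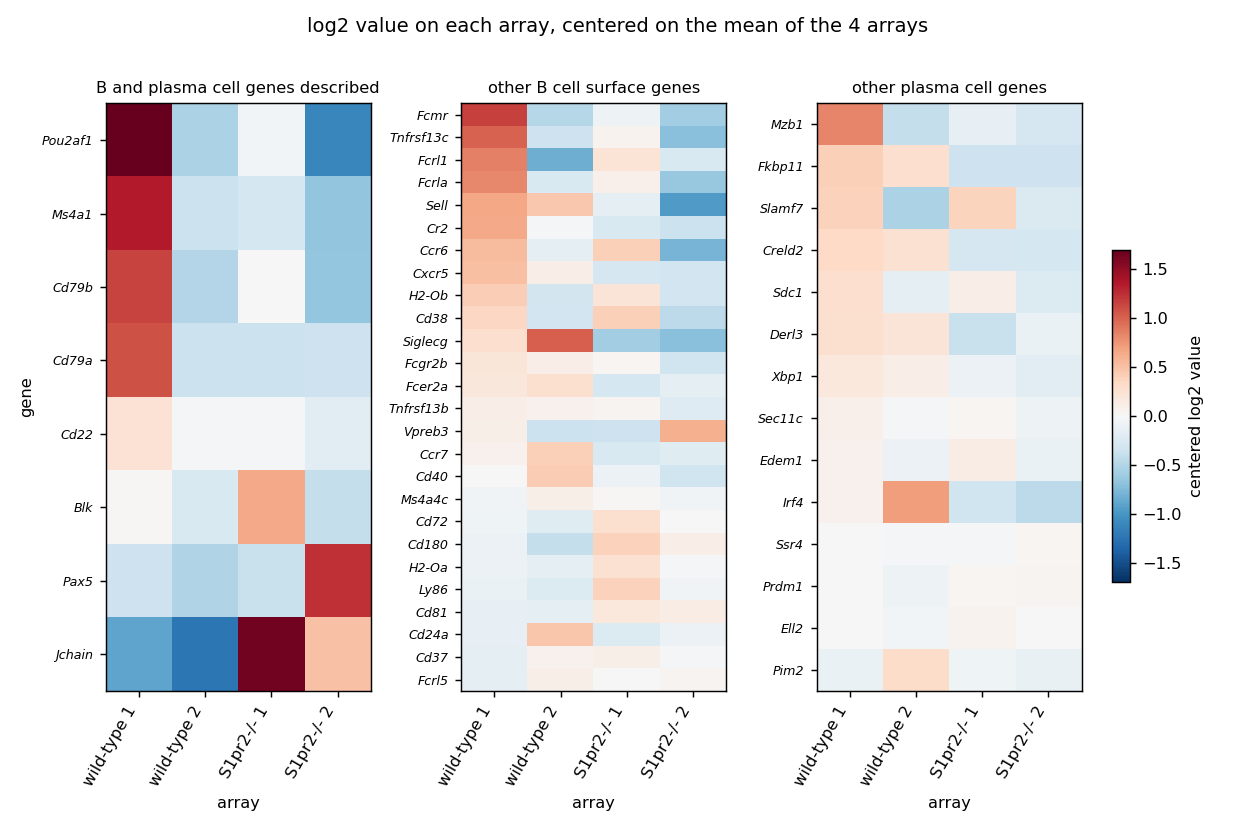
Log2 value on each of the 4 arrays, centered on the mean of the arrays (color, log2 units), for the 8 tested genes, 26 of the 27 B cell surface genes and 14 plasma cell genes. The column of wild-type replicate 1 is highest for Ms4a1, Cd79a, Cd79b, Pou2af1 and Fcmr, among others, while Siglecg is highest on wild-type replicate 2.

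Of 15 genes that signal behind the B cell receptor, 2 were lower and 0 higher at an unadjusted p under 0.05 (5.59% and 3.99% of all probes), and the median log2 fold change was 0.0032. Bank1, an adaptor of the B cell receptor, had ratios of 0.300 and 0.386 in wild-type and 0.0803 and 0.0634 in S1pr2-/- labelled cells. Both wild-type arrays were above both others, with a log2 fold change of -2.25 (SE 0.202, limma adjusted p = 0.509), and its second probe gave -2.17 (SE 0.212). The adaptor Dapp1 gave -0.35 (SE 0.066). Of 13 transcription factors, 0 were lower and 0 higher at an unadjusted p under 0.05 by limma (5.59% and 3.99% of all probes). Without overlap, 2 were lower and 2 higher (21.8% and 20% of all probes). The median log2 fold change of the 13 was 0.05, with Spib at -0.69 (SE 0.238).

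Of 12 ligands that act on B cells, 6 entered the fit. At an unadjusted p under 0.05 by limma, 2 were lower and 0 higher (5.59% and 3.99% of all probes). The median log2 fold change was -0.30. It was 0.42 with normexp background correction, which raised signals on S1pr2-/- replicate 1 far more than on the other arrays. Il6, a cytokine that favors plasma cell survival, had ratios of 0.0711 and 0.0990 in wild-type and 0.0219 and 0.0292 in S1pr2-/- labelled cells. Both wild-type arrays were higher, with a log2 fold change of -1.73 (SE 0.251, limma adjusted p = 0.509). Il7, a growth factor of early lymphocytes, gave -0.47 (SE 0.103). Cxcl13, the chemokine that draws B cells to follicles, had ratios of 0.0141 in wild-type replicate 1 and 0.0160 and 0.0336 in S1pr2-/- labelled cells, and on wild-type replicate 2 it was not well above background, so no difference is given. Cd40lg and Il21, signals of helper T cells, were not well above background.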

How the data were processed

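Total RNA of BALF cells was labelled with Cy3 and hybridized to 4 one-color whole mouse genome arrays. The authors deposited the processed intensity of each spot, background-corrected by Feature Extraction (version 10.7.3.1 in the submitters' processing notes, 11.0.1.1 in the file headers), and a table of normalized log2 values, which was used as an alternative only. Intensities were divided by the 75th percentile of the array over non-control spots, floored at 0.01 and log2-transformed. Outlier-flagged spots (115 to 273 an array) were left out, and spots of a probe were averaged; no spot was saturated. A probe was well above background where over 50% of its spots were. The 27158 probes with a value on every array, and well above background throughout at least 1 genotype, were fitted with limma 3.58.1 in R 4.3.3 (lmFit, eBayes, Benjamini-Hochberg). Accessions named 69.6% of 39429 probes.

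For a gene with several probes the brightest stood for it in lists. The text names every probe of the 9 genes, S1pr2, the 4 genes of lowest p in a list, and markers near background; others are said to be chosen after their values were seen. 1 gene of the lists is not reported here. Members and lists were chosen with earlier results of these data known. The methods call the RNA samples of a genotype independent without naming animals or cultures, so p-values measure only the spread between these samples, which may be technical. Precision is limited by the number of arrays. Same-numbered arrays had deviations that correlated at 0.187, but a number is all they share. Data were simulated for 2 arrays against 2 of 27158 probes, as independent normal values with the probes' spreads shuffled among them. Limma called 138 of 200 with a log2 change of 2, and 11 unchanged ones. With a change of 1 it called 0 of 200. In the data themselves 0 probes were called, so the simulated counts do not give the power for a probe with its own spread. Alternatives were other normalizations, background corrections, floors, filters, tests, a replicate block and each array left out. For normexp the median signal was used, as the mean signal was not among the columns.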

Additional observations from a re-analysis of the deposited data

How the results depend on the processing

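The lack of calls among the 8 genes at an adjusted p under 0.05 held under every alternative run. With quantile or cyclic loess normalization, 2 of their probes were higher without overlap in place of 1. With normexp, 0 were higher at an unadjusted p under 0.05, 1 was lower and 2 higher without overlap, Cd79a had a log2 fold change of 0.73, the median over the 8 genes was 0.25, those of the surface, plasma cell and ligand lists were 0.018, 0.017 and 0.42, and the 4 genes at least 2-fold higher on wild-type replicate 1 became 0; its fit gave S1pr2-/- replicate 1 a background mean of -418, against 4.72 to 8.15 on the other arrays. The median signal minus background plus 50, chosen after seeing the data, called 1 probe lower and 1 higher over the array, with 2 member probes lower without overlap, 3 genes at least 2-fold higher on wild-type replicate 1, and Jchain at 1.32. With the percentile over probes detected on all arrays the median over the 8 genes was -0.11. The methods' t-test gave 0 higher at an unadjusted p under 0.05. Shares of all probes without overlap were counted under the main settings only, so the counts given here have none beside them. The cause of these moves was not tested.

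Leaving out 1 array at a time, probes higher at an unadjusted p under 0.05 numbered 0 to 2 and lower 0 to 2, those without overlap 0 to 5 lower and 1 to 2 higher, and the median log2 fold change ran from -0.89 to 0.089. Leaving out arrays gave Cd79a -1.44 to 0.0062, Cd79b -1.48 to 0.17 (both highest without wild-type replicate 1), and Blk -0.29 (without S1pr2-/- replicate 1) to 0.75. A lone array was assumed to vary like the others. With the replicate number as a block, 0 probes were called, and Jchain had an adjusted p of 0.530 (limma, Benjamini-Hochberg); the numbers do not pair the samples. Pou2af1, Ms4a1, Cd22, Jchain and the brighter Pax5 probe kept their direction under every alternative run. The dimmer Pax5 probe, not well above background on any array, read -0.40 with no floor, the other way from the brighter one. Signals near the floor, as for Cd79a and Pax5, limit what their differences can show.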

Other observations

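Named genes outside all the lists were ranked by how near they lay to the mean profile of the 8 B cell and plasma cell genes. Genes of the lists were left out of this search beforehand. By centered log2 values over the 4 arrays the nearest were Aire (Euclidean distance 0.033), Vsig8 (0.070), Atf7ip2 (0.102), Etl4 (0.109), Neil2 (0.142) and Ift46 (0.152). Aire and Atf7ip2 were at the floor on wild-type replicate 2, with ratios of 0.0097 and 0.0078, so the distances of these genes depend on it. The mean they were set against was highest on wild-type replicate 1 (0.54) and lowest on wild-type replicate 2 (-0.48). It joins genes of unlike array order. Pax5 and Jchain were lowest on wild-type replicate 2, and Cd79a was at the floor there and on S1pr2-/- replicate 1. Ms4a1, Cd79b, Blk, Cd22 and Pou2af1 were lowest on S1pr2-/- replicate 2, so nearness to the mean is not nearness to each gene.

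T cell genes did not share the array order of Ms4a1. Of 14 tested, 8 were lower on the arrays labelled S1pr2-/- without overlap and 0 higher, with a median log2 fold change of -0.43, or -0.44 without wild-type replicate 1, -0.74 without S1pr2-/- replicate 1 and -0.18 without S1pr2-/- replicate 2. Over all probes tested, 21.8% were lower and 20% higher without overlap. Lck, the kinase of the T cell receptor, gave -0.77 (SE 0.186) and Cd5 gave -0.77 (SE 0.189), with adjusted p of 0.509 each by limma with Benjamini-Hochberg adjustment. Neutrophil markers had a median of -0.28 over 7 genes.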
